A study of Mus musculus with 16 samples.

Results

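The genes described here are 36 mouse imprinted genes that lie outside the Dlk1-Dio3 cluster, and they were chosen by name. All 36 of 36 were found by symbol among the 23284 genes of the expression table. Transcripts were measured by RNA sequencing of polyadenylated RNA in 16 libraries, 4 of embryoid bodies (EBs, aggregates in which pluripotent cells differentiate) and 12 of induced pluripotent stem cells (iPSCs). All libraries share the genotype ColA1_miR203; Rosa26rtTA, a doxycycline-inducible miR-203 construct, and the study followed a transient pulse of this microRNA over time. Library names carry the prefix KIX or KI, then D or V, then EB or 1, 4 or 10. What these codes stand for is not explained, and doxycycline is listed for every library, so the codes were compared as written and none was read as an induction or a day. Each of the 8 groups (KIX and KI at number 1, at number 4, at number 10 and in EBs) held 2 libraries, D and V. The iPSCs were reprogrammed from embryonic fibroblasts and grown over feeder cells, and EBs were formed in hanging drops. The labels do not say that the libraries are separate cultures or lines, and each p-value therefore reflects spread among these libraries alone, which may be technical.

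Imprinted genes are transcribed from 1 parental allele, because DNA methylation laid down at control regions in the germ line marks 1 parental copy, not always the silent one. The mark is kept in the early embryo and in pluripotent cells by ZFP57, TRIM28 and DNMT1. As a group these genes are known for control of growth, of the placenta and of the insulin-like growth factor (IGF) pathway. Among the 36, textbook knowledge assigns 21 to the paternal and 13 to the maternal allele, and 2 (Gnas and Blcap) differ by isoform. The table gives no counts by allele, so which allele was transcribed was not measured.

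Levels are FPKM, fragments per transcript length and library size, and changes are differences between group means on the log2(FPKM + 1) scale, where weakly expressed genes appear to change less than they do. The words rose and fell are kept for genes whose limma adjusted p (Benjamini-Hochberg over all genes tested) was under 0.05. Library totals lay between 612598 and 724350 FPKM, and 12117 to 12501 genes reached 1 FPKM in each library. All 10 pluripotency markers averaged at least 1 FPKM, with a sum of 719 to 1229 FPKM in EBs and 2428 to 3156 FPKM in iPSCs. The 10 fibroblast markers summed to 24.1 to 489 FPKM in EBs and 1143 to 2566 FPKM in iPSCs, and 10 extraembryonic endoderm markers to 1633 to 2937 FPKM in EBs and 11.4 to 23.7 FPKM in iPSCs. In bulk RNA, a change in the number of cells of a type and a change in RNA per cell cannot be told apart.

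RefSeq (GRCm38.p6) gave promoter windows for 31 of the 36 genes; H19, Peg10, Sgce, Cdkn1c and Impact have no entry. The 250 bases before the start are printed here for genes whose levels differed most between KIX and KI EBs and had a window, and for Igf2r, inside which Airn starts, with every CG, the methylated dinucleotide of imprint control, in capitals. Plagl1 (chr10:13090582-13090831), Nnat (chr2:157559828-157560077), Zim1 (chr7:6696433-6696682), the most CG-rich of 4 windows of Igf2 (chr7:142658805-142659054), Airn (chr17:12741061-12741310) and Igf2r (chr17:12769707-12769956) are given 5′ to 3′ on the strand of the gene.
Plagl1: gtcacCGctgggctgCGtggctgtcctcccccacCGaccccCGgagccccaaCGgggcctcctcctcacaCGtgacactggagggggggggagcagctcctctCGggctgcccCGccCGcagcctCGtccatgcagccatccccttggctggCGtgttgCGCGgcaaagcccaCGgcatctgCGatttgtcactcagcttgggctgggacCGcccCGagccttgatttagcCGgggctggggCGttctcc
Nnat: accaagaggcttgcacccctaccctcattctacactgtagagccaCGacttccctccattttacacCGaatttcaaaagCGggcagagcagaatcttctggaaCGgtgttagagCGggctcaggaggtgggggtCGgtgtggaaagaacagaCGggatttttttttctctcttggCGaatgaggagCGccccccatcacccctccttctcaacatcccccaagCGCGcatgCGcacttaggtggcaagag
Zim1: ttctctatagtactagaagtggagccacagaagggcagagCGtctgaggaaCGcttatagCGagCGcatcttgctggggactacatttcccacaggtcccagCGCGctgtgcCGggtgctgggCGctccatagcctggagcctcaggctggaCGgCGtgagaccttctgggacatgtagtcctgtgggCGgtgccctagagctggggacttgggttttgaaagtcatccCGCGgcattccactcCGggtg
Igf2: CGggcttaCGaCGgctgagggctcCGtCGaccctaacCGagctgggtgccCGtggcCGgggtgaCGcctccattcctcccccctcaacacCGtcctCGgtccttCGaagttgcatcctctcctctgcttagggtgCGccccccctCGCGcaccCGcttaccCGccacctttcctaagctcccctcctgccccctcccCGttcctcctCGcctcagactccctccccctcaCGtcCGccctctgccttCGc
Airn: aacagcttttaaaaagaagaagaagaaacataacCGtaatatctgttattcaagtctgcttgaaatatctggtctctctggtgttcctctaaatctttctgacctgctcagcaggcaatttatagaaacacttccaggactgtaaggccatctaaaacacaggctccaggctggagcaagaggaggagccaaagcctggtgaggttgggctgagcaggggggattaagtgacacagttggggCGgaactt
Igf2r: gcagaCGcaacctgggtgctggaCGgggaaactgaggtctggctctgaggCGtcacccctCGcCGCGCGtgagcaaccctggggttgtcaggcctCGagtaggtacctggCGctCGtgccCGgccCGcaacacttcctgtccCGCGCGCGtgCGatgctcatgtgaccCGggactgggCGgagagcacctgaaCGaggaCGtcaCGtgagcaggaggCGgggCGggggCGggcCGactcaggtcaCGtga
The 6 sequences hold 19, 12, 14, 22, 2 and 27 CG in that order. Over 49 windows of 300 bases from 31 members, the median was 15 CG (range 2 to 48), against 20 over 12443 windows of all tested genes. At least 10 CG were found in 65.3% of the members' windows and 76.8% of all. The hexamer TGCCGC, which ZFP57 binds when methylated, was searched on both strands and was present in 12 of 49 members' windows (24.5%), among them that of Plagl1 and that of Zim1, and in 18.9% of all windows. The 12 count the shared window of Snrpn and Snurf under both names, and overlapping windows of Mest separately. A match is a description of these letters only.

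In the iPSCs the 36 genes ranged from well under 1 FPKM to 282 FPKM in mean level. The highest mean levels were those of Gnas, which codes for the stimulatory G protein alpha subunit, at 282 ± 47.3 FPKM, and Cd81, a tetraspanin, at 190.2 ± 20.8 (SD, n = 12). Next were Snrpn, a splicing protein (75.8 ± 14.2 FPKM), the noncoding RNA H19 (72.6 ± 25.2), Commd1, a copper-handling protein (63.5 ± 6.17), and Igf2, insulin-like growth factor 2 (62.97 ± 15.8). These 4 do not differ beyond their spread. The lowest were Zim1, a zinc finger gene, at 0.212 ± 0.0526 FPKM, Usp29, a ubiquitin protease, at 0.282 ± 0.112, and Magel2, a ubiquitin ligase cofactor, at 0.301 ± 0.111. Usp29 stayed under 1 FPKM in every library, at 0.713 and 0.735 FPKM in KIX EBs, 0.488 and 0.374 in KI EBs and 0.107 to 0.446 in iPSCs, and was not tested. In all, 19 members had at least 10 FPKM in all 16 libraries, none was listed at 0 in any, and 35 passed the filter on low values over 16 libraries (33 over the 12 of iPSCs, where Zim1 and Magel2 also dropped out). Zim1 passed only through its EB levels, so it had to be higher there. Magel2 passed only through KIX EBs, at 1.55 and 1.13 FPKM, against 0.802 and 0.719 in KI EBs, so its higher level in EBs and in KIX EBs was fixed by the filter and nothing is read from its calls.

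In EBs most of these genes were higher than in iPSCs, with growth regulators on both sides. Of 35 tested, 20 rose and 9 fell, 15 and 2 of them at least 2-fold. The filter favoured the rises of Zim1 and Magel2 and the falls of Snurf and Slc22a18, here and in the counts by allele. limma called 78.9% of all 13895 genes tested, 40.8% higher and 38.1% lower, so a call by itself sets no member apart. With the fibroblast level as a covariate, 20 of the 29 calls remained and 9 were lost (Cd81, Mkrn3, Peg12, Phlda2, Slc22a18, Slc38a4, Snurf, Zdbf2 and Zrsr1), and 2 further members were called, giving 19 rises and 3 falls, while the share of all genes called was 54.4%. The members' median change was 0.64 on the log2 scale, against 0.02 for all genes tested. Of genes assigned to the paternal allele 12 of 20 rose and 5 fell, and of those assigned to the maternal allele 7 of 13 rose and 4 fell.

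Among growth promoters, Igf2, the fetal growth factor at chr7:142650766-142666816, was at 600.3 and 509 FPKM in KIX EBs and 173 and 171 FPKM in KI EBs. In the 12 iPSC libraries it lay between 42.9 and 94.6 FPKM with a median of 60.8, so every EB library stood above every iPSC library. The log2 difference was 2.31 ± 0.35 (SE; limma adjusted p = 0.000112). Mest, a hydrolase-like protein that promotes fetal growth, was at 173 to 237 FPKM in EBs and 28.3 to 54.8 in iPSCs (log2 difference 2.35). Peg10, a retrotransposon-derived gene needed for the placenta, was at 245 to 349 FPKM in EBs and 25.4 to 46.3 in iPSCs (3.04), and its neighbour Sgce, a sarcoglycan, at 17.3 to 25.3 and 2.66 to 5.17 (2.16). All of these ranges lie apart.

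Growth inhibitors rose as well. Grb10, an adaptor that damps insulin and IGF receptor signalling (chr11:11930508-12038683), was at 116 and 109 FPKM in KIX EBs, 205 and 205 in KI EBs and 13.2 to 28.7 in iPSCs (log2 difference 2.74 ± 0.18, limma adjusted p = 1.37e-07). Igf2r, the receptor that clears IGF2, had a mean of 108 ± 23.6 FPKM over the 4 EB libraries and 39.9 ± 5.33 over the 12 of iPSCs, a log2 difference of 1.39. Cdkn1c, the cyclin-dependent kinase inhibitor p57, averaged 41.96 ± 14.0 and 10.7 ± 2.45 FPKM (1.84). Plagl1, a zinc finger transcription factor not placed in either class here, averaged 22.3 ± 20.5 and 2.16 ± 0.747 FPKM (2.37). The SD of Plagl1 in EBs is nearly as large as its mean, since KIX EBs stood far above KI EBs. Phlda2, which restrains placental growth, went the other way, at 12.1 to 20.2 FPKM in EBs and 32.4 to 85.3 in iPSCs (-1.56).

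The largest rise of all members was that of Asb4, a ubiquitin ligase adaptor of the Peg10-Sgce region on chromosome 6, at 16.4 to 20.8 FPKM in EBs and 0.207 to 1.95 in iPSCs (3.47 ± 0.17, limma adjusted p = 1.42e-08). Zim1 (2.61), Airn (2.29), the noncoding RNA antisense to Igf2r, and Peg3 (1.84), a zinc finger gene, also rose at least 2-fold, as did Nnat (1.37), a small membrane protein, Impact (1.05), a translation regulator, and Ppp1r9a (1.03), the neuronal scaffold neurabin. Nnat alone among the genes raised 2-fold overlapped between the sides, at 70.6 and 183 FPKM in KIX EBs, 12.9 and 28.4 in KI EBs and 10.6 to 24.3 in iPSCs, and its call was lost without either KIX EB library. Smaller rises were those of Gnas (0.81), Slc38a4 (0.67), an amino acid transporter, Mkrn3 (0.30), a ring finger gene, and Cd81 (0.25). Magel2 (0.64) was also called, in the direction fixed by the filter. Calls of Mkrn3 and Cd81 were lost without the D library of KIX EBs, and that of Cd81 also without the V library of KI EBs.

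Snrpn was at 28.2 to 42.9 FPKM in EBs and 50.3 to 93.3 in iPSCs, a fall of 1.04 on the log2 scale. Snurf, which is annotated within the same transcript unit, averaged 0.438 ± 0.285 FPKM in EBs and 1.44 ± 0.564 in iPSCs (log2 difference -0.75), with overlap. All 216 exonic bases of Snurf lie in Snrpn exons, so reads may have been split between them. Other falls were those of Slc22a18 (-0.77), an organic cation transporter, Zdbf2 (-0.76), a zinc finger gene, Peg12 (-0.63), a GSK3-binding protein, Commd1 (-0.34), Tssc4 (-0.31) and Zrsr1 (-0.27), a splicing factor retrogene; that of Zrsr1 was lost without the V library of KI EBs. H19 (-0.27, 95% interval -1.88 to 1.34), Ndn (-0.40), Kcnq1ot1 (-0.08), Blcap (0.16), Mcts2 (-0.00) and H13 (-0.01) did not pass. Snurf and Slc22a18 stayed under 1 FPKM in every EB library. Both passed the filter only through iPSCs, which favoured their falls. The prefixes lay on opposite sides of the iPSC range for H19, as given next.

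**Figure D1:**
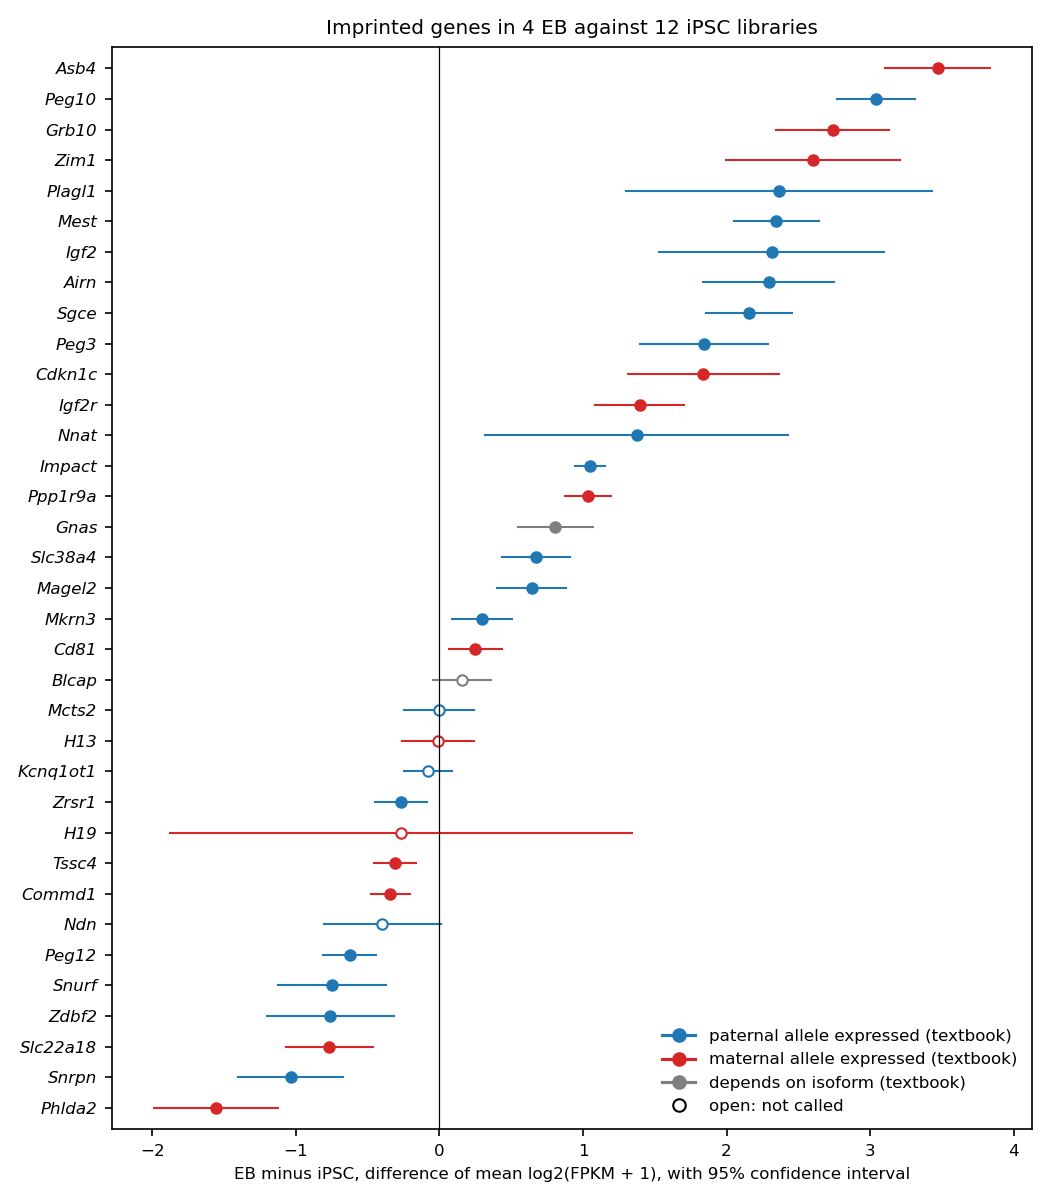
Difference of mean log2(FPKM + 1) between 4 EB and 12 iPSC libraries (horizontal axis) for the 35 tested genes (vertical axis), with 95% confidence intervals from limma; colours give the textbook allele and open points were not called. Asb4 (3.47) and Peg10 (3.04) stand at the top, Phlda2 (-1.56) at the bottom, and H19 has the widest interval.

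The prefixes differed in more members in EBs than at any iPSC number. Of 35 members tested, 15 (14 without Magel2) were higher and 4 lower in KIX than in KI EBs, while limma called 27.3% of all genes, 12.4% higher and 15% lower. The median over the members was 0.23, against -0.03 over all genes tested. At least 2-fold, 6 were higher, namely H19, Plagl1, Nnat, Igf2, Zim1 and Airn, and none lower. The study's labels do not say what KIX and KI are, so these are differences between coded libraries.

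H19, a maternally expressed noncoding RNA at chr7:142575529-142578143, was at 185 and 264 FPKM in KIX EBs and at 22.7 and 8.85 FPKM in KI EBs (D, then V). In iPSCs it was at 45.4 to 76.0 FPKM in KIX libraries and at 53.2 to 128 FPKM in KI libraries. KIX EBs thus stood above all iPSC libraries and KI EBs below all of them. The KIX-KI difference in EBs was 3.86 ± 0.31 on the log2 scale (SE; limma adjusted p = 2.72e-05), and it exceeded the mean difference in iPSCs by 4.32 ± 0.36 (adjusted p = 5.03e-05). H19 exons contain Mir675 (84 bases), so some of its reads may be listed there.

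Igf2, the paternally expressed neighbour 72622 bases away, averaged 555 ± 64.7 FPKM in KIX EBs and 172 ± 1.45 FPKM in KI EBs (n = 2 each), a log2 difference of 1.68 ± 0.16 (limma adjusted p = 6.08e-05). Both genes of the pair were therefore higher in KIX EBs, by unequal factors. The ratio of Igf2 to H19 FPKM was 3.25 in D and 1.93 in V of KIX EBs, 7.60 and 19.3 in KI EBs, and 0.545 to 1.30 over the 12 iPSC libraries. The ratio was above its iPSC range in all 4 EB libraries.

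Plagl1 was at 47.1 and 31.1 FPKM in KIX EBs and 7.03 and 4.09 FPKM in KI EBs, and between 0.931 and 3.35 FPKM in iPSCs (KIX-KI difference in EBs 2.62 ± 0.21, limma adjusted p = 2.69e-05). All EB libraries exceeded all iPSC libraries, with KIX EBs apart from KI EBs. Nnat, which lies in an intron of Blcap on chromosome 2, differed by 2.51 ± 0.40 (adjusted p = 0.00142), and its KIX EB libraries, at 183 and 70.6 FPKM, stood far apart. Of its KI EB libraries, D (28.4 FPKM) was above the iPSC range and V (12.9 FPKM) within it. Zim1 was at 11.6 and 11.1 FPKM in KIX EBs and 4.04 and 2.81 FPKM in KI EBs (1.498 ± 0.11, adjusted p = 1.85e-05), and Airn at 11.8 and 12.5 and at 5.67 and 5.00 FPKM (1.05 ± 0.13, adjusted p = 0.00027). For both genes the D and V libraries of a prefix were closer to each other than to the other prefix.

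The other 9 higher genes moved less than 2-fold. They were Cdkn1c (0.80), Ndn (0.78), the growth suppressor necdin, Peg3 (0.67), Phlda2 (0.59), Zdbf2 (0.52), Igf2r (0.51), Sgce (0.43), Magel2 (0.40) and Peg12 (0.29). Ndn was at 26.3 and 17.9 FPKM in KIX EBs and 12.8 and 11.7 FPKM in KI EBs, while iPSCs lay between 17.1 and 32.1, so only the KI EBs left the iPSC range. The 4 lower genes were Grb10 (-0.86), Snrpn (-0.47), Asb4 (-0.31) and Slc38a4 (-0.30). Grb10, a growth inhibitor, was thus lower in KIX EBs where Igf2 was higher, and Cdkn1c and Igf2r, also inhibitors, were higher. Calls of Asb4 and Peg12 were each lost on leaving out any 1 of the 4 EB libraries, and calls of Igf2r, Phlda2, Sgce, Slc38a4, Zdbf2, Magel2 and Peg3 on leaving out at least 1 of them. The count fell to 12 without the V library of KIX EBs, without the D library of KI EBs and without the V library of KI EBs.

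**Figure D2:**
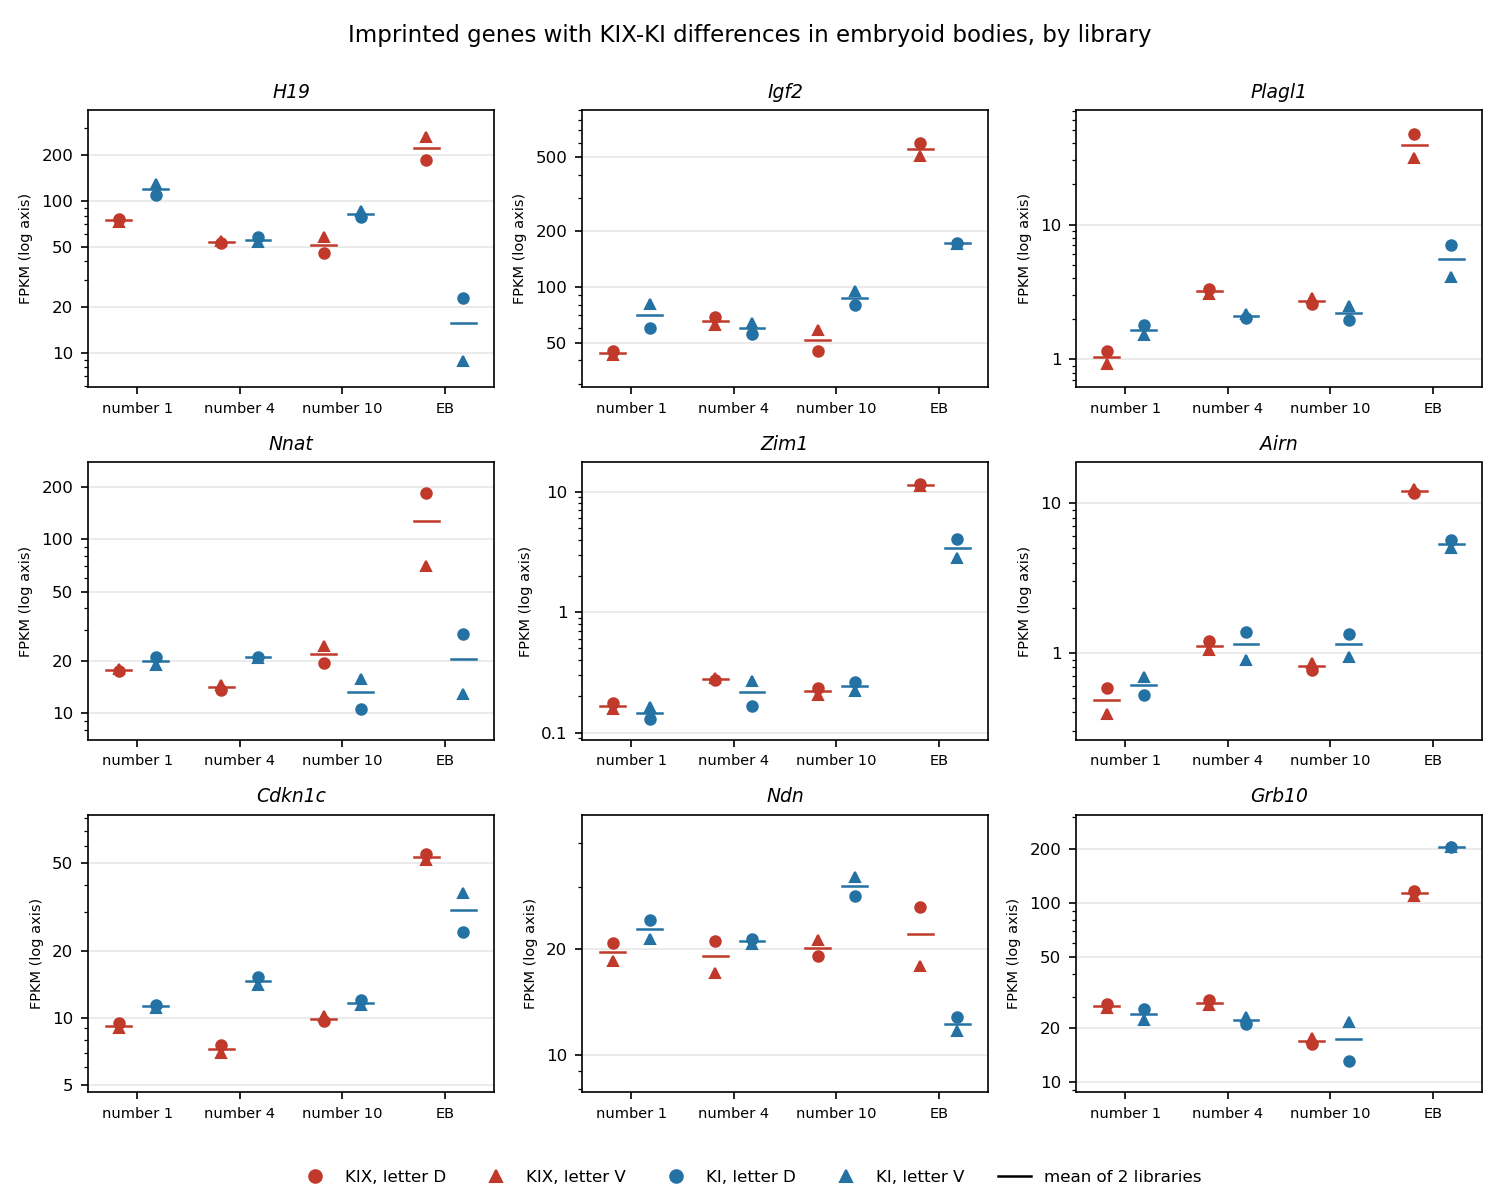
FPKM (log axis) of 9 genes in each library, with KIX (red) left of KI (blue) at each number and in EBs, circles for letter D, triangles for V and bars for the mean of 2 libraries. H19 in KI EBs (22.7 and 8.85 FPKM) falls below all iPSC libraries and in KIX EBs (185 and 264 FPKM) above them, while Grb10 is higher in KI EBs.

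Cell type markers also differed between the EBs. The 10 fibroblast markers summed to 489 (D) and 160 (V) FPKM in KIX EBs and to 47.0 (D) and 24.1 (V) FPKM in KI EBs, and 7 of the 10 were higher and none lower. Summed cardiac muscle markers were 161 to 682 FPKM in KIX EBs and 94.0 to 107 in KI EBs (5 of 5 higher), extraembryonic endoderm markers 2833 to 2937 and 1633 to 1686 (3 of 10 higher), and pluripotency markers 719 to 882 and 1205 to 1229 (9 of 10 lower). The other lists were close together: trophoblast 540 to 549.9 and 586 to 631 (2 of 8 tested genes higher, 5 lower), neural 11.6 to 15.0 and 16.7 (2 of 3 lower), and blood and endothelium 126 to 129.9 and 120.3 to 131 (3 of 6 higher, 1 lower). No gene of these lists was at 0 in all EB libraries. The part of cell composition in the members' differences was not tested.

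With the mean log2 fibroblast level as a covariate, 5 of the 19 calls between KIX and KI EBs remained: H19 (3.84, limma adjusted p = 0.0177), Plagl1 (1.47, adjusted p = 0.0124), Igf2 (1.52, adjusted p = 0.0395), Zim1 (1.22, adjusted p = 0.0173) and Airn (1.26, adjusted p = 0.0341). Under the same fit the share of all genes called was 4.72%. The fibroblast level was 3.24 to 4.40 in KIX and 1.56 to 2.13 in KI EBs, without overlap. Its slope came only from differences between D and V within groups, so the fit cannot separate prefix from fibroblast level. Nnat dropped to 0.23 and Ndn to 0.01 on the log2 scale, Peg3 was at 0.45, and Magel2 and Zdbf2 changed sign. The other 9 lost their call while the difference kept its size or grew, namely Grb10 (-1.24), Cdkn1c (1.02), Phlda2 (0.90), Snrpn (-0.67), Igf2r (0.54), Peg12 (0.48), Asb4 (-0.48), Sgce (0.43) and Slc38a4 (-0.34). Within KIX EBs, D had the larger fibroblast sum and also more Nnat, Plagl1 and Igf2, but less H19. In the iPSC libraries, where the fibroblast sum was at least 1143 FPKM, Igf2 did not exceed 94.6 FPKM, Plagl1 3.35 and Nnat 24.3. Whether the fibroblast markers of EBs and of iPSCs, which were grown over feeder cells, come from the same kind of cell was not tested.

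**Figure D3:**
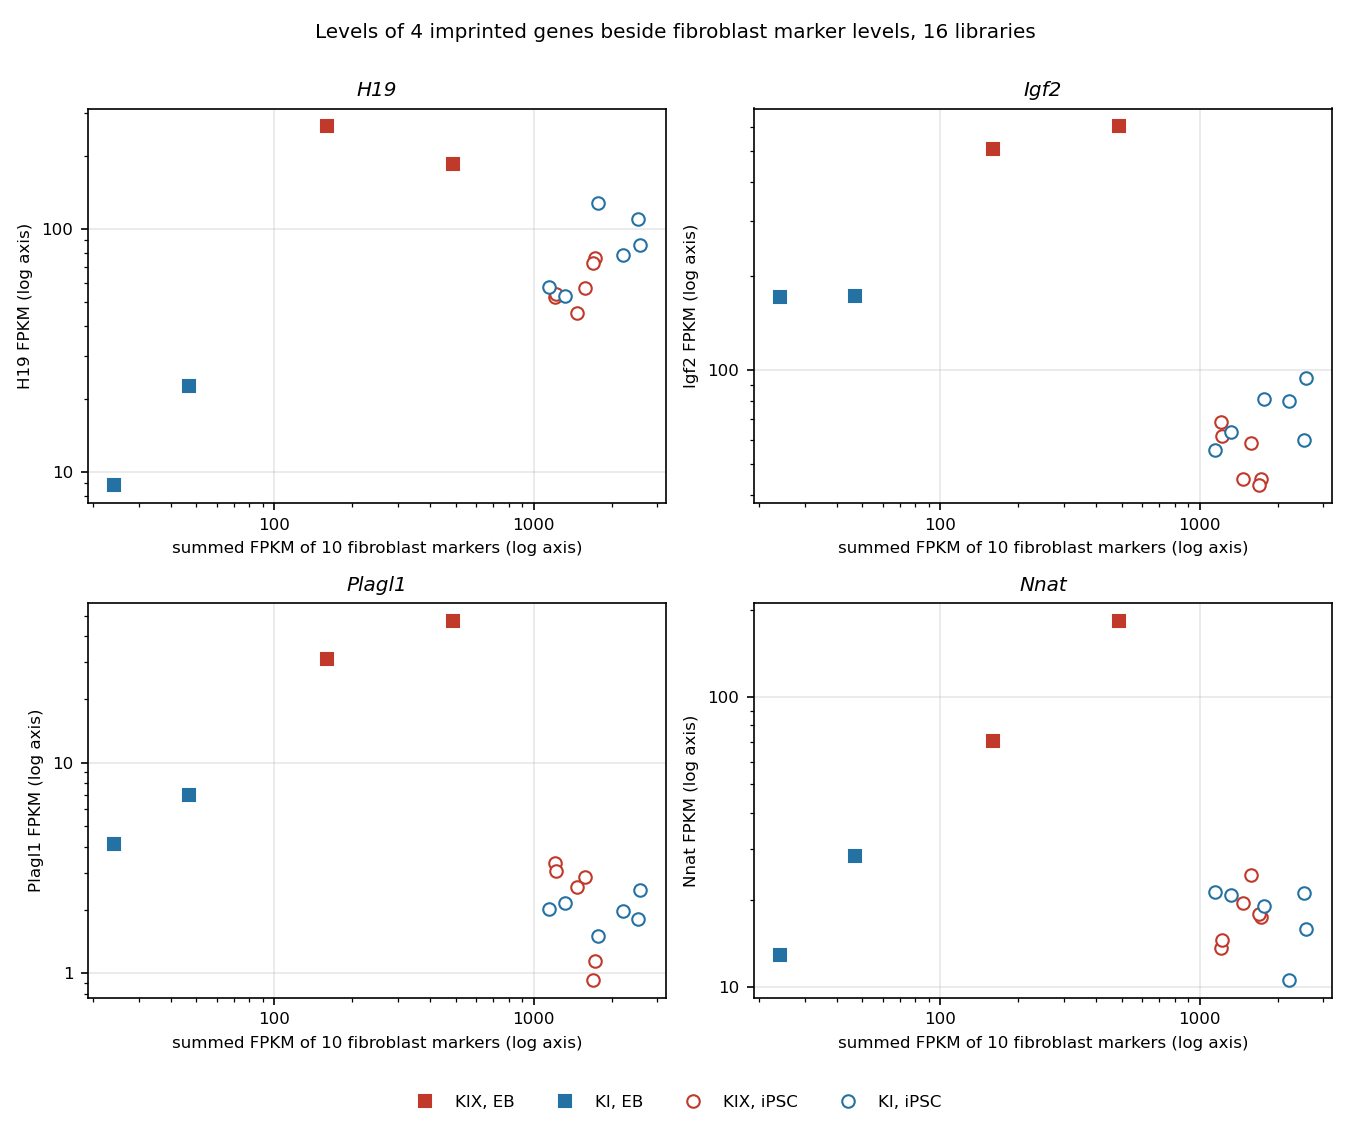
FPKM of H19, Igf2, Plagl1 and Nnat (vertical, log axis) against the summed FPKM of the 10 fibroblast markers (horizontal, log axis) in 16 libraries, squares for EBs and open circles for iPSCs. KIX EBs have the highest levels of all 4 genes at fibroblast sums of 160 to 489 FPKM, below those of every iPSC library.

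The KIX-KI difference changed between iPSCs and EBs for 16 of 35 members, 13 (12 without Magel2) toward higher and 3 toward lower values in EBs, against 33% of all genes (14.8% and 18.2%). Besides H19 these were led by Plagl1 (2.53 ± 0.24), Nnat (2.51 ± 0.46), Igf2 (2.10 ± 0.18), Zim1 (1.47 ± 0.13), Cdkn1c (1.27 ± 0.16), Airn (1.17 ± 0.15) and Ndn (1.08 ± 0.18), with limma adjusted p from 5.53e-05 to 0.00259. Grb10 (-1.02 ± 0.19), Slc38a4 (-0.54) and Snrpn (-0.33) moved the other way. With the fibroblast covariate 6 remained, H19, Plagl1, Igf2, Zim1, Cdkn1c and Airn, against 4.17% of all genes. Among those lost, Grb10 (-1.45), Sgce (0.68), Slc38a4 (-0.58), Snrpn (-0.56) and Igf2r (0.55) kept their size or gained.

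Within iPSCs the prefixes differed in fewer members. Slc38a4 was called at both numbers 1 and 4, and Asb4, Blcap and Snrpn at both 4 and 10. The call of Asb4 at 10 was lost on leaving out most single libraries, as given below. At number 1, 2 of 35 were higher in KIX, against 2.2% of all genes (1.56% higher): Phlda2 at 79.6 and 85.3 FPKM in KIX and 41.7 and 49.5 in KI libraries (log2 difference 0.85 ± 0.15, limma adjusted p = 0.0173), and Slc38a4 at 76.2 and 71.2 and at 55.5 and 58.1 FPKM (0.37 ± 0.07, adjusted p = 0.0315). Both sides lie apart. Both calls were lost without the D library of KIX, without its V library and without the D library of KI at number 1, that of Slc38a4 also without the V library of KI, and after scaling all libraries to an equal total only 1 member was called. At number 4, 2 were higher and 4 lower, against 19.6% of all genes (11.3% and 8.29%). Cdkn1c was at 7.57 and 6.94 FPKM in KIX and 15.3 and 14.2 in KI libraries (-0.93 ± 0.14, adjusted p = 0.00127), with no overlap. Asb4 (-0.68), Snrpn (-0.59) and Mest (-0.53) were also lower and Blcap (0.31) and Slc38a4 (0.29) higher. The count was 3 without the D and 4 without the V library of KIX at number 4, and calls of Mest and Slc38a4 were lost on leaving out any 1 of the 4 libraries of that number.

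At number 10, 3 of 35 were higher and 9 lower in KIX, against 24.6% of all genes (9.94% and 14.6%). Zdbf2 was at 8.45 and 7.66 FPKM in KIX and 3.97 and 3.89 in KI libraries (0.88 ± 0.13, limma adjusted p = 0.00236), with Peg3 (0.64) and Snrpn (0.41) also higher. Igf2 was at 45.1 and 58.4 FPKM in KIX and 79.6 and 94.6 in KI libraries (-0.75 ± 0.16, adjusted p = 0.00873), the opposite side from EBs. Slc22a18 (-0.60), Ndn (-0.56), Sgce (-0.54), Gnas (-0.53), H13 (-0.52), a signal peptide peptidase, Cd81 (-0.40), Blcap (-0.30) and Asb4 (-0.28) were lower as well. Fibroblast markers summed to 1469 to 1574 FPKM in KIX and 2205 to 2566 in KI libraries of number 10, and with the fibroblast covariate 10 of the 12 calls remained, those of Ndn and Asb4 not, while 16% of all genes were called. Without the D library of KIX the count fell to 3, Cd81, H13 and Zdbf2. The call of Asb4, at 0.207 to 0.558 FPKM at number 10, was kept in 5 of 16 fits with 1 library left out.

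**Figure D4:**
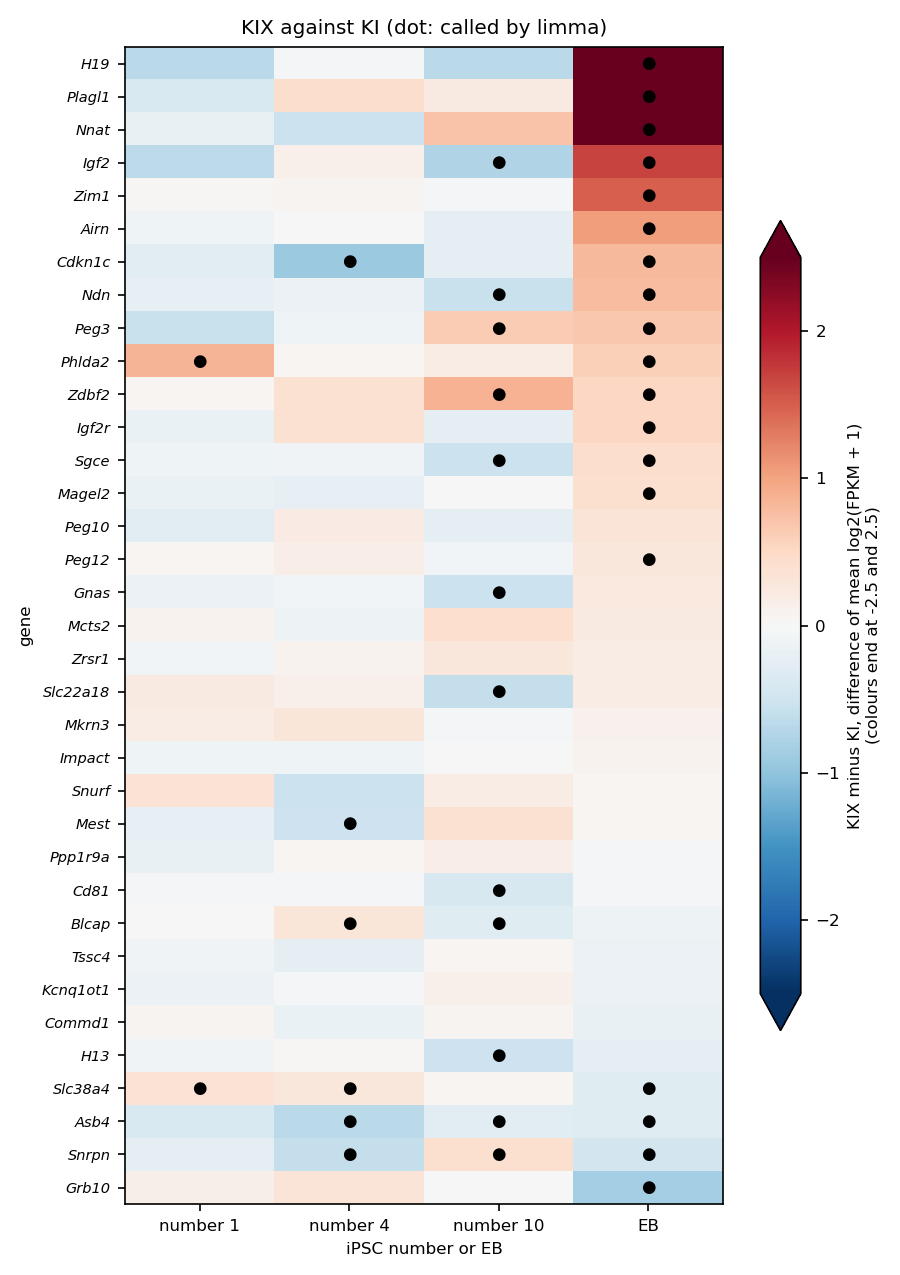
KIX minus KI differences of mean log2(FPKM + 1) for 35 genes (rows) at each iPSC number and in EBs (columns), with a dot where limma called the difference. The EB column holds the most positive values, led by H19 (3.86), the most negative is that of Cdkn1c at number 4 (-0.93), and calls at numbers 1, 4 and 10 are 2, 6 and 12.

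The change of the KIX-KI difference was tested directly. From number 1 to number 4 it was called by limma for 0 members, against 4.71% of all genes. At an unadjusted p under 0.05 there were 10 of 35 members, against 25.1% of all genes. From number 4 to number 10 it was called for 12, 5 upward and 7 downward, against 28.5% (11.4% and 17.1%). This count was 5 without the D library of KIX at number 10, 8 without its V library and 7 without the D library of KIX at number 4. Snrpn (0.995 ± 0.12, adjusted p = 0.000606), Mest (0.92), Peg3 (0.74), Cdkn1c (0.71) and Asb4 (0.39) moved up, and Igf2 (-0.88), Slc22a18 (-0.72), Igf2r (-0.63), Blcap (-0.61), H13 (-0.55), Sgce (-0.46) and Cd81 (-0.37) moved down. The call of Asb4 was kept in 4 of 16 fits with 1 library left out. For Snrpn the change is one of side, at 50.3 and 54.9 FPKM in KIX and 84.5 and 74.8 in KI libraries of number 4. At number 10 it was at 88.1 and 84.9 FPKM in KIX and 62.0 and 68.1 in KI libraries.

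Across iPSC numbers no called change reached 1 on the log2(FPKM + 1) scale. Number 10 against 1 gave 5 rises and 4 falls among 33 members, against 27.4% of all 13080 genes (13.5% and 13.9%). Kcnq1ot1, the long noncoding RNA of the Cdkn1c domain, averaged 1.52 FPKM at number 10 and 0.729 at number 1 (0.54 ± 0.09, limma adjusted p = 0.00365), with no overlap, while Cdkn1c, which it silences in cis on the paternal allele, did not pass (0.07). Outside number 10, Kcnq1ot1 reached 1 FPKM among iPSCs only in the V library of KI at number 4 (1.01). It thus passed the filter through number 10, which favoured its rises there over numbers 1 and 4. Plagl1 (0.57), Mest (0.55), Airn (0.35) and Zrsr1 (0.32) rose too. The filter also favoured the rise of Airn over number 1, as given next. Slc38a4 (-0.57), Grb10 (-0.54), Peg12 (-0.50) and Impact (-0.30) fell, Slc38a4 to 39.4 to 45.9 FPKM at number 10, against 55.5 to 76.2 at number 1. The count was 4 without the D and 3 without the V library of KIX at number 1, and 6 without the V library of either prefix at number 10. Calls of Impact, Kcnq1ot1 and Peg12 were kept whichever library was left out.

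Number 4 against 1 gave 1 rise and 1 fall, against 8.7% of all genes (3.2% and 5.5%). Airn was at 0.900 to 1.39 FPKM at number 4 and 0.392 to 0.694 at number 1 (0.46 ± 0.11, limma adjusted p = 0.0412), and Impact at 30.7 to 34.2 and 42.8 to 46.6 FPKM (-0.47 ± 0.06, adjusted p = 0.00519). Number 10 against 4 gave 1 rise and 2 falls among 33, against 11.8% (7.16% and 4.65%): Kcnq1ot1 (0.48), Peg12 (-0.50) and Grb10 (-0.52). Peg12 was at 2.30 to 2.77 FPKM at number 10 and 3.43 to 4.21 at number 4, with no overlap. With the fibroblast covariate none of these 3 remained, against 5.83% of all genes. The call of Airn between numbers 4 and 1 was lost with that covariate and on leaving out any 1 of 10 of the 12 iPSC libraries in the fit. These fits count the KIX-KI difference as spread.

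**Figure D5:**
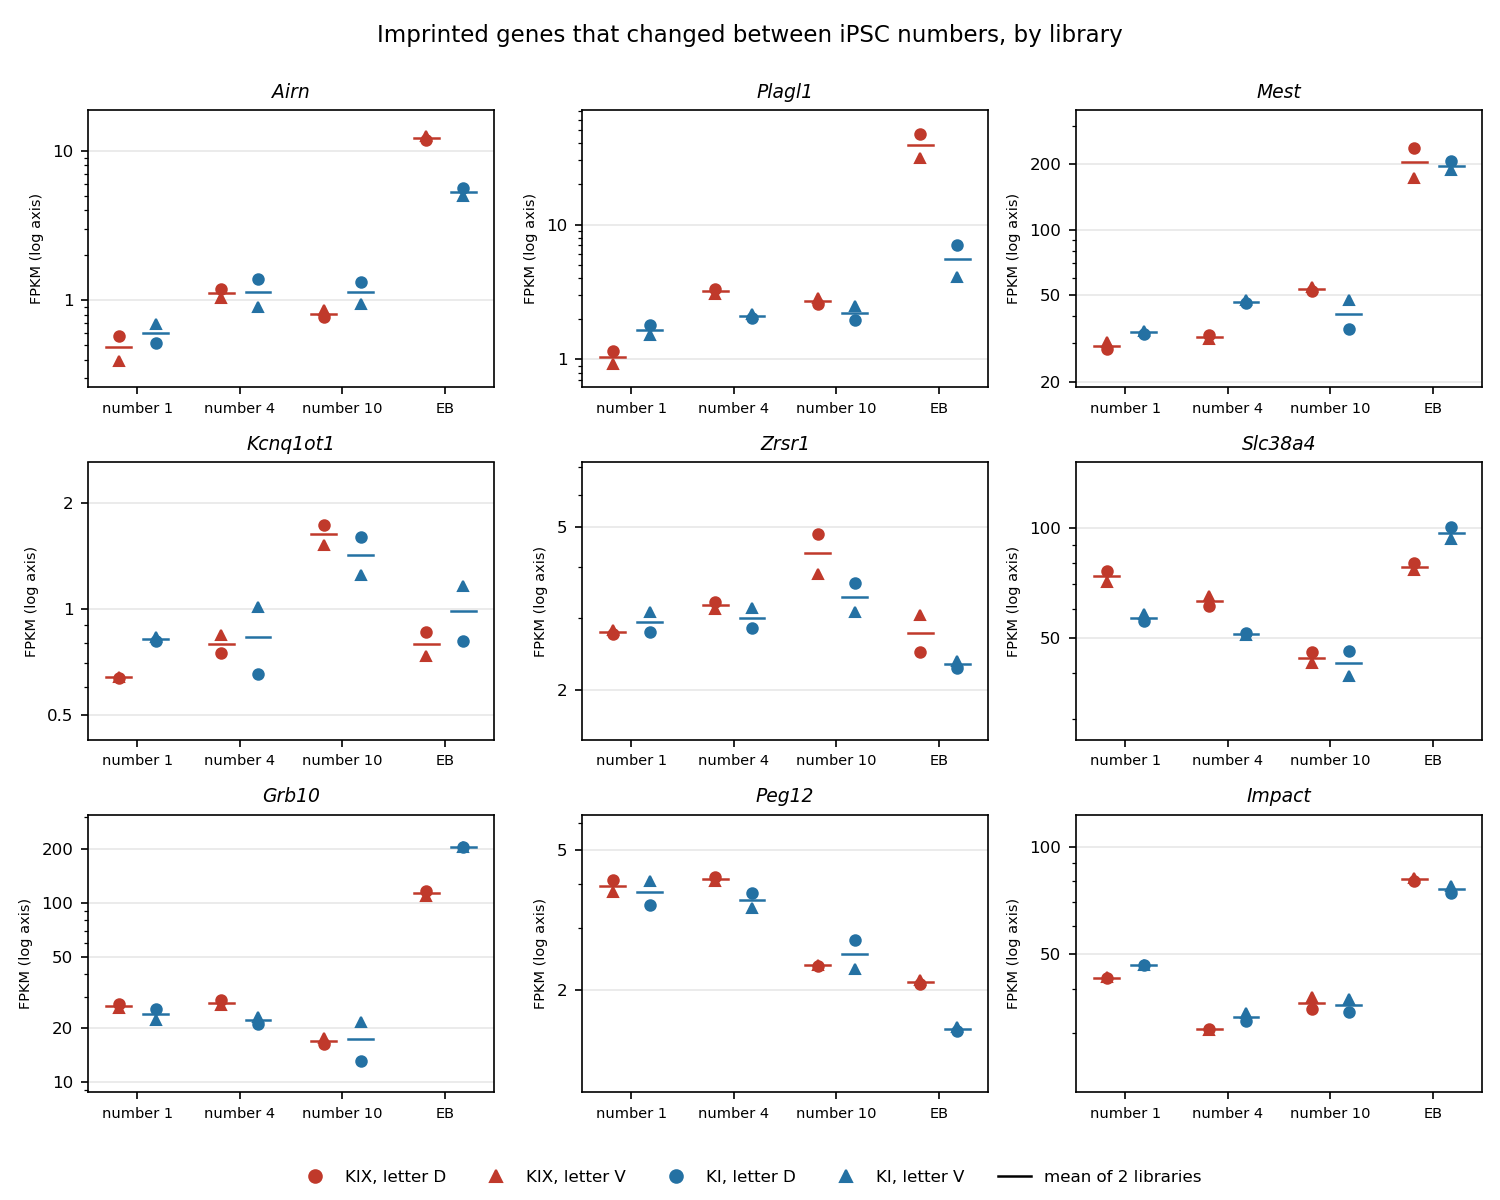
FPKM (log axis) of the 9 genes called between iPSC numbers, by library, with KIX (red) left of KI (blue), circles for D, triangles for V and bars for means of 2 libraries. Kcnq1ot1 is highest at number 10 (1.25 to 1.73 FPKM), and Peg12 and Slc38a4 are lowest among iPSCs there.

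Genes that share a locus did not always move alike. Sgce and Peg10 lie 98 bases apart on opposite strands, and the ratio of Peg10 to Sgce FPKM ranged from 4.91 to 12.97 in iPSCs. In EBs it was 14.2 and 15.4 in the KI libraries (D, then V) and 13.8 in the V library of KIX. The D library of KIX EBs stood only marginally above the highest iPSC library, so the sides were barely apart for this pair. Peg3 and Usp29 lie 146 bases apart, also on opposite strands, yet Peg3 was at 62.0 to 242 times the FPKM of Usp29. Zim1, 7441 bases from Peg3 and expressed from the other parental allele, rose more than Peg3, so the ratio of Peg3 to Zim1 was 12.7 to 31.0 in EBs and 94.99 to 268 in iPSCs. The filter fixed the direction of Zim1 in EBs. In iPSCs Zim1 was at 0.130 to 0.282 FPKM, so the iPSC ratio rests on very low values. Airn starts inside Igf2r on the opposite strand of chromosome 17, without exonic overlap, and the ratio of Igf2r to Airn was 9.96 to 17.8 in EBs and 21.6 to 88.4 in iPSCs, while both genes rose. In the Cdkn1c domain of chromosome 7, Cdkn1c rose and Phlda2, Slc22a18 and Tssc4 fell in EBs, although all 4 are assigned to the maternal allele. The fall of Slc22a18 was favoured by the filter. Exons of Mest and Copg2, Gnas and Nespas, Commd1 and Zrsr1, Kcnq1ot1 and Kcnq1, Cd81 and R74862, Tssc4 and Trpm5, and Usp29 and Zim3 overlap on opposite strands. The libraries mark strand, but the setting used to quantify them is not given in the sources used here, so reads of these partners cannot be told apart with certainty.

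Because the construct carries miR-203, its seed sites in the members' 3′ UTRs (GENCODE M21 transcripts, GRCm38) were searched. The mature miR-203-3p (RefSeq, chr12:112130927-112130948) is shown with its seed, bases 2 to 8, in capitals, followed by the sites of Slc38a4 (chr15:96996436-96996442 and chr15:96995527-96995533) and Asb4 (chr6:5431662-5431668), the genes with a site that differed between KIX and KI at number 1 or 4, with the site CATTTCA in capitals.
miR-203-3p: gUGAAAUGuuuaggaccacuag
Slc38a4 site 1: atagagtacttCATTTCAatactcaagga
Slc38a4 site 2: tgtatattttaCATTTCAgtaaaaagcca
Asb4 site: ctaggaatagaCATTTCAacacactgagc
The site was present in 7 of 32 coding members (21.9%), Asb4, Cd81, Grb10, Impact, Peg3, Slc38a4 and Zdbf2, and in 15.0% of 11857 tested coding genes. Median UTR lengths were 1086.5 and 934 bases. Mir203 was at 1728 to 2254 FPKM in the 4 KIX libraries of numbers 1 and 4, and at 0 in the KI libraries of those numbers and in all libraries of number 10. In EBs it was at 212 FPKM in the D library of KIX, 90.1 FPKM in the V library of KI, and 0 in the V library of KIX and the D library of KI. FPKM divides by length and depth is unknown, so values of so short a gene may rest on few fragments. They are not comparable with levels of long transcripts. Of the 7 genes, Slc38a4 was higher in KIX at both numbers, Asb4 was lower at number 4, and the other 5 did not pass at either, with log2 differences at number 4 of 0.32 for Grb10, -0.10 for Peg3, 0.37 for Zdbf2, -0.02 for Cd81 and -0.11 for Impact. No common direction was seen.

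Of 23 genes that set, keep or erase imprints, 5 rose and 14 fell in EBs against iPSCs (82.6% called, against 78.9% of all genes). The named falls were Zfp42 (-1.998), Dppa3 (-1.61) and Uhrf1 (-1.41), and Tet3 (1.93), a methylcytosine dioxygenase, rose. Between KIX and KI EBs, 1 was higher and 8 lower (39.1%, against 27.3%), among them Dnmt3l (-0.84), Dnmt3b (-0.83), Zfp42 (-0.65) and Zfp57 (-0.55). At number 10 against 1, 7 rose and none fell (30.4%, against 27.4%), led by Zfp57 at 123 ± 23.8 and 57.2 ± 1.52 FPKM (n = 4 each; 1.07, limma adjusted p = 0.00137). At KIX against KI, 0 of 23 were called at number 1, 2 were higher and 6 lower at number 4 (34.8%, against 19.6%), and 10 were higher and 1 lower at number 10 (47.8%, against 24.6%).

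Of 14 genes of the IGF axis other than Igf2 and Igf2r, 8 rose and 3 fell in EBs against iPSCs (78.6%, against 78.9% of all genes), and 9 were higher and 1 lower in KIX than in KI EBs (71.4%, against 27.3%). Igfbp1, an IGF-binding protein of liver and yolk sac, was at 34.0 ± 19.5 FPKM in KIX EBs and 4.98 ± 2.49 FPKM in KI EBs (n = 2 each; 2.49, limma adjusted p = 0.00044). Igfbp5 (2.30) and Igfbp4 (1.11) were higher too and Igfbp2 was lower (-1.06). Igf2bp2, which codes for an Igf2 mRNA-binding protein, was higher in EBs than in iPSCs (1.87) and not called between the prefixes there (-0.13). The median of the list was 0.53 between KIX and KI EBs, beside 0.23 for the members and -0.03 for all genes tested.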

How the data were processed

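The deposited table holds FPKM values per gene and library. Per the labels' protocols, polyadenylated RNA was made into strand-marking libraries. The submitters' processing notes name, without roles, the build GRCm38/mm10 and the tools TopHat2 2.0.10, Cufflinks 2.2.1, Bowtie 1.0.0, FastQC and SAMtools 0.1.19. Their settings, annotation and strand option are not given in the sources used here. FPKM values hold no counts: only 30.5% of 16243 low values lay within 0.1 of whole multiples, so whole reads were not recovered, depth is unknown and no counting interval is given.

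Genes that reached 1 FPKM in 2 or more libraries entered the fit, made by limma 3.58.1 (R 4.3.3) on log2(FPKM + 1) values (trended variance, Benjamini-Hochberg over all genes tested, threshold 0.05). EBs against iPSCs and iPSC numbers were compared over letter-by-number means, KIX against KI over prefix-by-number means with D and V as 2 replicates. Sequences were read with Python 3.11.15 and pandas 2.3.3. The scripts were tested on simulated data. Every one of the 36 genes is accounted for; for other lists, up to 4 called genes with the largest change were to be named per comparison. The members and lists were chosen with earlier results of these data known. Alternatives were another pseudocount, other filters, quantile normalization, scaling to an equal total, other means, a replicate block, a fibroblast covariate and each library left out.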

Additional observations from a re-analysis of the deposited data

Results flagged for a closer look

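Among 140 groups of 4 libraries examined, 6 held a library that stood apart from the other three; chance gives about 1 in 20. These were Zim1 at number 4 in the D library of KI (0.167 FPKM, others 0.266 to 0.282), Ndn at number 4 in the V library of KIX (17.1 FPKM, others 20.8 to 21.4), Gnas at number 1 in the D library of KI (294 FPKM, others 246 to 253), Peg12 at number 10 in the D library of KI (2.77 FPKM, others 2.30 to 2.36), Cd81 at number 4 in the D library of KI (184 FPKM, others 176 to 177) and Blcap in the V library of KIX EBs (17.1 FPKM, others 19.7 to 20.2).

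The KIX-KI difference changed between stages by limma's test of the change itself. From number 4 to number 10 it changed by -0.875 for Igf2, -0.627 for Igf2r, -0.457 for Sgce, 0.916 for Mest, 0.739 for Peg3, 0.995 for Snrpn and 0.711 for Cdkn1c. It changed by -0.721 for Slc22a18, 0.392 for Asb4, -0.374 for Cd81, -0.614 for Blcap and -0.552 for H13. Between EBs and iPSCs it differed by 4.32 for H19, 2.10 for Igf2, 0.524 for Igf2r, 0.679 for Sgce, -1.02 for Grb10, 2.53 for Plagl1, 0.679 for Peg3 and 1.47 for Zim1. It differed by -0.329 for Snrpn, 1.08 for Ndn, 0.528 for Magel2, 1.27 for Cdkn1c, 2.51 for Nnat, 0.496 for Gnas, 1.17 for Airn and -0.540 for Slc38a4. All values are on the log2(FPKM + 1) scale.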

How the results depend on the processing

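Of the values of called genes recomputed under the alternatives, 698 of 714 kept direction and call for EBs against iPSCs, 386 of 431 for KIX against KI EBs, 181 of 220 for number 10 against 1, 38 of 49 for 4 against 1, and 231 of 275 for the change from number 4 to 10. EB libraries do not enter the fits of iPSC numbers. Values with an EB library left out are counted there as kept, although they could not change. For KIX against KI EBs and the change from number 4 to 10, libraries outside the comparison enter only through the shared spread and the adjustment. Leaving out 1 of these could not change the log2 differences, and such values are counted too. With the fibroblast covariate the counts became 5 (KIX against KI EBs), 6 (change between iPSCs and EBs), 1 (change between numbers 1 and 4) and 0 (number 10 against 4). Signs turned for Magel2 (-0.0948) and Zdbf2 (-0.0080) between KIX and KI EBs, and for Magel2 (-0.0349) and Nnat (-0.0590) in the change; the cause was not tested. Scaling to an equal total gave 1 at number 1 and 2 for the change between numbers 1 and 4. A mean of at least 5 FPKM, which tests fewer genes, gave 4 for number 10 against 1, 1 for 10 against 4 and 1 for 4 against 1. Prefix-by-number means, which do not count the KIX-KI difference as spread, gave 20, 18 and 14. Number means alone gave 8 for 10 against 4 and 4 for 4 against 1, and quantile normalization 6 for 10 against 4.

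Libraries of the same letter share only a letter: deviations of D and V correlated at -0.0587 to 0.113 between prefixes. The replicate block gave 10 at KIX against KI of number 4, 1 for the change between numbers 1 and 4, 7 for number 10 against 4 and 4 for 4 against 1.

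Leaving out each library gave 26 to 30 for EBs against iPSCs, and for KIX against KI 0 to 4 at number 1, 3 to 8 at number 4, 3 to 13 at number 10 and 12 to 20 in EBs. The change gave 11 to 18 between iPSCs and EBs (11 without the V library of KI EBs), 5 to 13 from number 4 to 10 and 0 to 5 from 1 to 4 (5 without the V library of KI at number 4). Numbers gave 3 to 9 (10 against 1), 2 to 5 (10 against 4) and 1 to 2 (4 against 1).

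Scaling to an equal total moved the share of higher among all called genes to 67.4% (45.3% as reported) for KIX against KI EBs, 78.3% (57.7%) at number 4, 21.5% (40.5%) at number 10 and 59.1% (70.9%) at number 1. For the change it moved the share to 65.4% (45%) between iPSCs and EBs, 16.6% (40%) from number 4 to 10, where quantile normalization gave 51.5%, and 86.2% (53.6%) from 1 to 4. Quantile normalization gave 49.8% (36.7%) for number 4 against 1. After scaling, the median of all genes was 0.103 for KIX against KI at number 4, and 0.162 (1 to 4) and -0.178 (4 to 10) for the change. Members called after scaling were 16 higher and 2 lower in EBs, 5 and 4 at number 4.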

Other observations

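Of 36 other imprinted genes, listed by symbol with earlier results of these data known, 24 passed the filter on low values. In EBs against iPSCs, limma called 11 higher and 9 lower (83.3%, against 78.9% of all genes), with a median of 0.01 on the log2 scale beside 0.02 over all genes tested. Tnfrsf23, a decoy receptor, was at 1.22 ± 0.315 FPKM in EBs and 12.7 ± 3.12 FPKM in iPSCs (SD, n = 4 and 12; log2 difference -2.60). Htr2a, a serotonin receptor (-2.23), and Tfpi2, a protease inhibitor (-2.16), fell as well, and Inpp5f, a phosphoinositide phosphatase, rose (1.78).

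Between KIX and KI EBs 5 of the 24 were higher and 4 lower (37.5%, against 27.3% of all genes). Ampd3, an AMP deaminase, was at 4.37 ± 0.657 FPKM in KIX EBs and 1.28 ± 0.446 FPKM in KI EBs (n = 2 each; 1.24, limma adjusted p = 0.000109). Rasgrf1, a Ras activator (0.95), and Klf14, a transcription factor (0.80), were also higher, and Ascl2, a trophoblast transcription factor, was lower (-0.76).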
